A study of Mus musculus with 6 samples.

Results

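Genes of protein folding in the endoplasmic reticulum (ER), of transport into it and of disposal from it were examined in mouse dermal fibroblasts with and without endothelin 1 (Et1), a secreted peptide that signals through the receptors Ednra and Ednrb. The set was a list of 36 gene symbols, each looked up among the probe sets annotated with exactly 1 symbol and represented by its brightest probe set over the 6 arrays. On the array 34 of the 36 were found, out of 18193 genes with such a probe set, and all 34 passed the filter on dim signals. Fkbp10 had no probe set of its own, Sec61g shared its probe set with other symbols, and both were not analysed here. By role they were 11 chaperones, 8 disulfide and proline folding enzymes, 6 genes of translocation, 6 of ER-associated degradation and 3 stress sensors or their factors.

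The cells were primary dermal fibroblasts of strain B6, grown as explants from the skin of pups of both sexes, 0 to 2 days old in the sample labels, at passage 6 in medium with serum. Et1 cultures received 100 nM of a synthetic Et1 peptide (human and porcine sequence) for 24 hours, and control cultures got no addition. There were 3 arrays per group, called biological replicates in the labels, and nothing names the animals behind them. The p-values therefore measure the spread between these arrays, which may be in part technical. In RNA from whole cultures, fewer cells of a type and less RNA per cell cannot be told apart.

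The ER folds nearly all proteins that a fibroblast secretes, collagen among them. Nascent chains enter through the Sec61 channel, chaperones and disulfide isomerases fold them, and chains that fail are pulled back to the cytosol and degraded. When unfolded chains pile up, the sensors Atf6, Ern1 (also called IRE1) and Eif2ak3 (PERK) start the unfolded protein response, in which Atf6 and spliced Xbp1 switch on chaperone and degradation genes.

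Many promoters of ER chaperones carry the ER stress response element (ERSE), the letters CCAAT and CCACG with any 9 bases between them, to which Atf6 binds together with NF-Y. Promoter windows from RefSeq (build GRCm38.p6), from 250 bases before to 50 after each annotated start, were found for 29 of the 36 genes, in 32 windows, and searched on both strands. An exact ERSE stood in the windows of 8 of the 29 genes, against 0.119% of all 32851 windows. The first share counts genes and the second windows. The element is known from ER chaperones, which the list holds, so the larger share among members is not a result of these data. The matches are shown here, read in the direction of the motif with its fixed letters in capitals. All 8 genes but Syvn1, a degradation gene, are chaperones or folding enzymes. Hsp90b1 has 2 matches. Each line gives the distance from the start to the farthest upstream base of the match, and whether the motif reads along the gene or on the other strand. Where it reads on the other strand, that base is the last one printed.
Calr, 162 bases before the start (chr8:84847075-84847093, other strand): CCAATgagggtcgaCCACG
Creld2, 126 bases before the start (chr15:88819520-88819538, other strand): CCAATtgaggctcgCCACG
Pdia6, 98 bases before the start (chr12:17266491-17266509, along the gene): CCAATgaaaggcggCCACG
Syvn1, 44 bases before the start (chr19:6046532-6046550, along the gene): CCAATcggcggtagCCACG
Hsp90b1, 107 bases before the start (chr10:86705533-86705551, other strand): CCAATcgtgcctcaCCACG
Hsp90b1, 212 bases before the start (chr10:86705638-86705656, along the gene): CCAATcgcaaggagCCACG
Dnajc3, 105 bases before the start (chr14:118937827-118937845, along the gene): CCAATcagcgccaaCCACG
Hspa5, 65 bases before the start (chr2:34772025-34772043, along the gene): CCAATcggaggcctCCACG
Canx, 145 bases before the start (chr11:50325800-50325818, along the gene): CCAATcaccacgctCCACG

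The shorter ERSE-II, ATTGG and CCACG with any 1 base between them, occurred for Herpud1 and Dnajb11, against 0.0365% of all windows. For Dnajb11 it lay just after the start. The letters TGATGCAA (CARE), which pair C/EBP with ATF factors such as Atf4, stood 112 bases before the start of Herpud1 on the other strand and in 0.895% of all windows. The letters TGACGTGG (UPRE), bound by Xbp1 and Atf6, were in 0.676% of all windows and in none of the members'. ERSE and ERSE-II end on the same CCACG, and TGACGTGG holds its reverse complement, so the motifs can overlap. The 250 bases before the start are printed for the member with the lowest Et1 signal relative to control (Calr), for a folding enzyme (Creld2), for the promoter with 2 matches (Hsp90b1) and for the member with the highest one (Herpud1); capitals mark the fixed letters of ERSE, ERSE-II and CARE.
Calr (GRCm38.p6, chr8:84846932-84847181, minus strand): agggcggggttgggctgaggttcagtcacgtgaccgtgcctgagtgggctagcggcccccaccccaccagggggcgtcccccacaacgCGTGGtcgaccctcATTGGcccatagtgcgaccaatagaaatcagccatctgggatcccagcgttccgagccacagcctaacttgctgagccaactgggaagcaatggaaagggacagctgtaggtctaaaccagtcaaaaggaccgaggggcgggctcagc
Creld2 (GRCm38.p6, chr15:88819396-88819645, plus strand): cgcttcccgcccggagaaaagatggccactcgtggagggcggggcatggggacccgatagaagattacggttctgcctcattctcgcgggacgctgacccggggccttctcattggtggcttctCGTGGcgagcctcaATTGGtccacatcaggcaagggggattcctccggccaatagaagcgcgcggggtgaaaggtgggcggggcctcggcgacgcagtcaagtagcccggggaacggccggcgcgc
Hsp90b1 (GRCm38.p6, chr10:86705445-86705694, minus strand): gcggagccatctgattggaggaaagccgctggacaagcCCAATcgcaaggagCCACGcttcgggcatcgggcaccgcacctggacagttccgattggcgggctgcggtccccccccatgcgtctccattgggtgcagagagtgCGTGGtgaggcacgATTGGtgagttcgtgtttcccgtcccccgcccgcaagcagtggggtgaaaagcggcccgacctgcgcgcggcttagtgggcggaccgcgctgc
Herpud1 (GRCm38.p6, chr8:94386179-94386428, plus strand): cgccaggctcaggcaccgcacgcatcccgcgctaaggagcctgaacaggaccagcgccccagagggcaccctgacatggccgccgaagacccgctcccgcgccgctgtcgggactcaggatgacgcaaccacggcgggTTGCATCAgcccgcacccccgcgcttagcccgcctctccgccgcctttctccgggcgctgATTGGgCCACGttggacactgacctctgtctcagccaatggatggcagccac

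**Figure D1:**
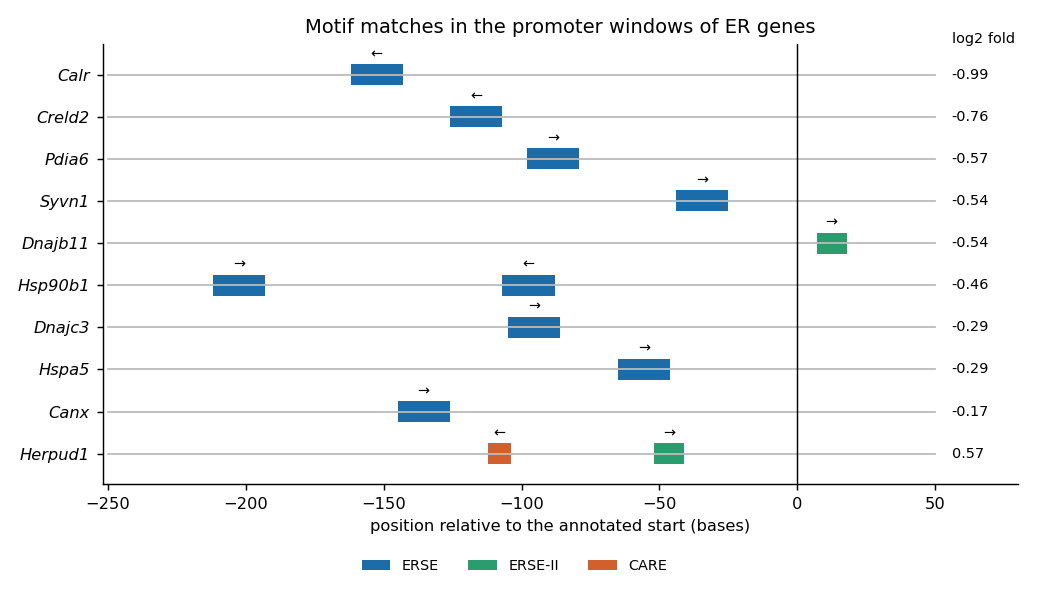
Motif matches along the promoter window of each member that has one, in bases from the annotated start (vertical line); arrows give the strand, and the number at the right is the log2 fold change, Et1 over control. The 8 genes with ERSE matches have log2 fold changes from -0.99 (Calr) to -0.17 (Canx). Herpud1, with ERSE-II and CARE, has 0.57, and Dnajb11, with ERSE-II, has -0.54.

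Of the 8 dermal fibroblast markers, 7 passed the filter on dim signals, and Lum, at 21.8 to 51.7, did not. Their summed scaled signal was 17670 to 28510 in the controls and 13190 to 24170 with Et1 over 8 of 8 genes. Vim gave the largest part of it, at 6833 to 10130, with a log2 fold change of 0.02. The other tested fibroblast markers all had lower means with Et1, from -1.18 (Thy1) to -0.26 (Dcn), with 0 past the limma threshold. Deposited array levels differed, with 2% trimmed means from 91.8 to 179, and signals here are scaled to a common 139. The arrays also split by the signal of bacterial poly(A) spike-in probe sets, a pattern seen in the data and not named in the labels. The low set, with a mean log2 spike-in signal of 3.45 to 3.57, held Et1 replicate 2 beside control replicates 1 and 2. The high set, at 4.75 to 5.64, held the other Et1 replicates and control replicate 3. Ratios of 3' to 5' actin probe sets, a sign of RNA integrity, ran from 1.15 to 1.23. Among markers of other cells, summed adipocyte signals were 735 to 1026 in the controls and 491 to 695 with Et1 over 5 of 6 genes, with Fabp4 past the limma threshold. Smooth muscle and pericyte markers summed to 620 to 1173 and 448 to 767 (6 of 6 genes), and keratinocyte markers to 521 to 747 and 602 to 736 (8 of 8). Melanocyte markers summed to 193 to 267 and 260 to 296 (6 of 6), endothelial to 98.7 to 125 and 120 to 208 (6 of 6), macrophage to 390 to 457 and 410 to 488 (6 of 6) and Schwann cell markers to 232 to 267 and 142 to 188 (4 of 6). Single endothelial markers read from 1.16 (Vwf) to 83.9 (Kdr), and 2 of 6 passed the filter on dim signals. Single melanocyte markers read from 2.25 (Mlana) to 74.0 (Mitf), and 4 of 6 passed it. The part of these cells and of the spike-in sets in the results below was not tested beyond the values given.

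The central comparison asked whether ER genes differ between fibroblasts with and without Et1. Most chaperones and folding enzymes had lower means: 16 of 19 had a lower mean log2 signal with Et1, against 44.3% of all 11666 genes tested. In 12 of the 19 every Et1 signal lay below every control signal, against 8.49% of genes, and in 2 (Dnajb9 and Uggt1) every Et1 signal lay above, against 10.7%. Their median log2 fold change was -0.43, against 0.05 for all genes tested. The 6 translocation genes had a median of -0.11 and the 6 degradation genes one of 0.03. None of the 34 members passed an adjusted p of 0.05 in limma, where 0.274% of genes passed as lower and 0.137% as higher; at an unadjusted p under 0.05, 11 of the 34 were lower and 3 higher. At that level 10 of the 19 were lower, against 6.53% of genes, and 1 was higher, against 6.93%; without control replicate 1 the 10 became 6, where 3.83% of genes were lower.

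With the spike-in set as block, limma called 5 members lower, namely Calr, Sdf2l1, Creld2, Pdia6 and Manf, and 0 higher, where 2.72% and 1.75% of genes were called. All 5 are chaperones or folding enzymes. At an unadjusted p under 0.05 that fit had 15 of the 19 lower, against 9.33% of genes. The block takes the level of each spike-in set out of the comparison. Within the low set the median of the 19 was -0.46 (1 Et1 array against 2 control arrays), and within the high set it was -0.37 (2 against 1). With the replicate number as the block instead, 3 members were called lower and 0 higher, where 2.02% and 0.9% of genes were called. With no block, the adjusted p of the 5 in limma ran from 0.135 for Creld2 to 0.361 for Manf.

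**Figure D2:**
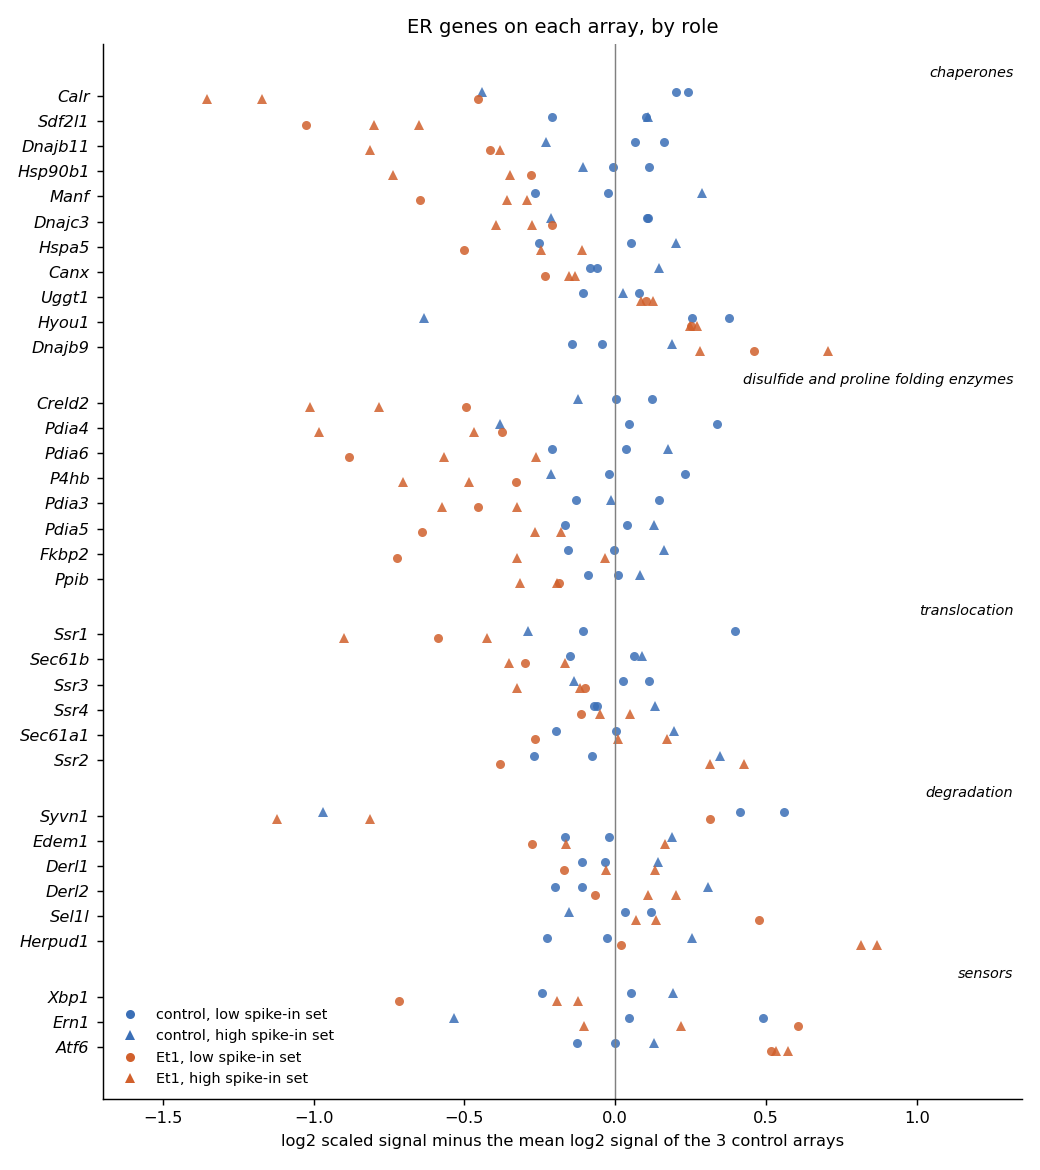
Every member on every array, as log2 scaled signal minus the mean of the 3 control arrays; color gives the group and shape the spike-in set. All orange points lie left of all blue ones for 12 of the 19 chaperones and folding enzymes, while Syvn1 separates by shape and not by color.

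Calr encodes calreticulin, a lectin chaperone that holds calcium in the ER and binds freshly glycosylated proteins. Its signals were 4159, 4268 and 2657 in control replicates 1 to 3 and 1605, 2638 and 1415 in Et1 replicates 1 to 3. Control replicate 3 was the lowest control and Et1 replicate 2 the highest Et1 culture, and these nearly met at 2657 and 2638. The group means were 3695 ± 900.3 and 1886 ± 658 (SD, n = 3), a log2 fold change of -0.99 with an SE of 0.26 (adjusted p by limma = 0.175). Between spike-in sets, high minus low, Calr differed by -0.74 on the log2 scale once the group was in the fit (adjusted p by limma = 0.00174). With the set as a block its log2 fold change was -0.75 with an SE of 0.11 (adjusted p by limma = 0.00592). Within the low and high sets the differences were -0.68 and -0.82. Both other tested probe sets of Calr had the same sign, at -0.99 and -0.94.

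Sdf2l1, part of a complex with Hspa5 and Hsp40 proteins, was dim: 137, 110 and 137 in the controls and 81.1, 62.5 and 73.2 with Et1. The groups did not overlap, and the log2 fold change was -0.83 with an SE of 0.20, or 1.77-fold lower (adjusted p by limma = 0.137; 0.0324 with the spike-in block). With 50 added to every signal before log2 it was -0.54. Manf is a small secreted ER stress protein. It read 2640, 2235 and 3280 in the controls and 2094, 1714 and 2190 with Et1, a log2 fold change of -0.43 with an SE of 0.17. The groups were close but apart, and with the spike-in block the log2 fold change was -0.56 (adjusted p by limma = 0.0231). Manf was higher in the high set by 0.38 (adjusted p by limma = 0.0414), and control replicate 3 stood highest.

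The large chaperones of the ER lumen and membrane separated with unequal clarity. Hsp90b1 (GRP94) folds selected secreted and membrane proteins and read 4069, 4421 and 3799 in the controls and 2453, 3369 and 3207 with Et1. These groups did not overlap, with a log2 fold change of -0.46 and an SE of 0.15 (adjusted p by limma = 0.267). Hspa5 (BiP), the Hsp70 of the ER and the partner that keeps the sensors silent, read 3770, 3047 and 4179 in the controls and 3363, 2569 and 3066 with Et1. Its groups overlapped, and the log2 fold change was -0.29 with a 95% interval from -0.65 to 0.08. It was -0.18 without Et1 replicate 2 and -0.19 without control replicate 3. Canx, the membrane-bound relative of calreticulin, had a log2 fold change of -0.17, with Et1 signals of 2224 to 2383 below control signals of 2467 to 2891; it was -0.10 without control replicate 3.

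The J-domain proteins, which pass clients to Hspa5, did not share a direction. Dnajb11 read 431, 403 and 329 in the controls and 296, 289 and 219 with Et1, a log2 fold change of -0.54 with an SE of 0.19 (adjusted p by limma = 0.290). Dnajc3, which also restrains Eif2ak3, had -0.29 in its brightest probe set, and its 4 other tested probe sets ran from -0.77 to -0.37, with a mean over all 5 of -0.51. Of those, 2 at -0.61 and -0.51 passed with the spike-in block (adjusted p by limma = 0.00639 and 0.0313). Dnajb9, which helps to silence Ern1, pointed the other way. It read 408, 382 and 480 in the controls and 511, 580 and 687 with Et1. Every Et1 culture was above every control, with a log2 fold change of 0.48 and an SE of 0.17 (adjusted p by limma = 0.303; 0.128 with the spike-in block).

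Uggt1, which tests whether a glycoprotein is folded, read 426 to 485 in the controls and 486 to 501 with Et1. Its log2 fold change was 0.10 (95% interval -0.21 to 0.42), and its 1 other tested probe set, a dim one, had -0.46, so the mean of both was -0.18. Hyou1, a large Hsp70 relative, read 480, 522 and 259 in the controls and 477 to 484 with Et1. Control replicate 3 alone stood apart, and the log2 fold change of 0.26 became -0.06 without it and -0.10 as the mean of its probe sets.

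**Figure D3:**
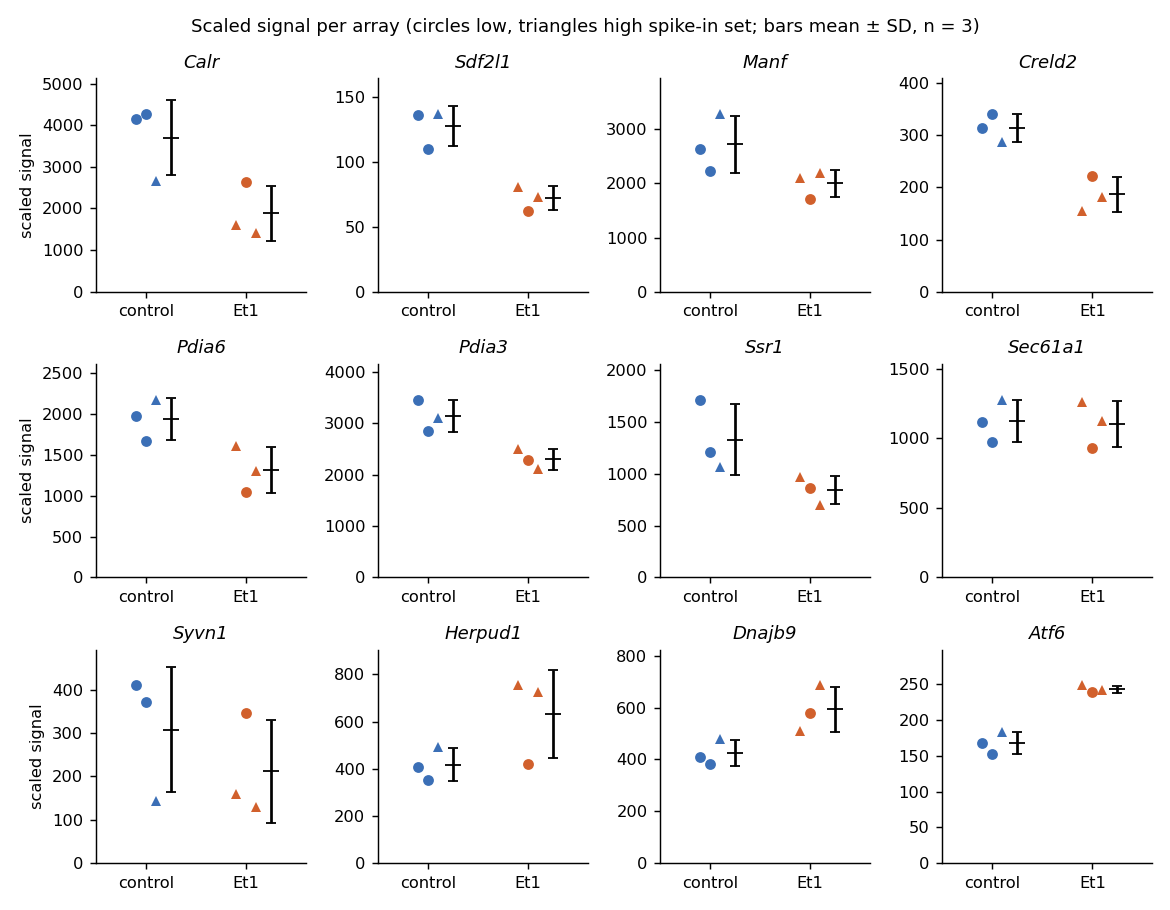
Scaled signal on each array for 12 members, with the mean and SD of 3 arrays per group beside the points; circles are the low and triangles the high spike-in set, and each vertical axis starts at 0. Atf6 and Dnajb9 show every Et1 array above the controls. Calr, Sdf2l1, Manf, Creld2, Pdia6, Pdia3 and Ssr1 show every Et1 array below, for Calr only just. Syvn1 splits by marker shape.

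Among the 8 disulfide and proline folding enzymes, every member had a lower mean with Et1, from -0.76 for Creld2 to -0.23 for Ppib, with a median of -0.48. In 6 of the 8 the groups did not overlap, with Et1 lower, as in 8.49% of all genes. Creld2, a stress-induced ER protein with isomerase activity, read 314, 341 and 288 in the controls and 155, 222 and 182 with Et1. The means were 314 ± 26.5 and 187 ± 33.8 (SD, n = 3), a log2 fold change of -0.76 with an SE of 0.18 (adjusted p by limma = 0.135; 0.0254 with the spike-in block). The Creld2 difference was -0.55 among arrays of the low set and -0.77 among those of the high set.

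The protein disulfide isomerases make and rearrange disulfide bonds. Pdia6 read 1973, 1665 and 2177 in the controls and 1605, 1046 and 1301 with Et1, so that all Et1 signals lay below the controls. Its log2 fold change was -0.57 with an SE of 0.19, and -0.69 with the spike-in block (adjusted p by limma = 0.264 and 0.0175). Pdia3, which works with Calr and Canx on glycoproteins, read 3457, 2855 and 3099 in the controls and 2493, 2283 and 2102 with Et1, a log2 fold change of -0.45 with an SE of 0.13 (adjusted p by limma = 0.217). P4hb is both an isomerase and a subunit of collagen prolyl 4-hydroxylase. It read 4784, 4019 and 3519 in the controls and 2913, 3245 and 2499 with Et1, without overlap, and had a log2 fold change of -0.51 (adjusted p by limma = 0.244).

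Pdia4 overlapped, since Et1 replicate 2 (169) stood just above control replicate 3 (168). Its log2 fold change was -0.61 with an SE of 0.24. Pdia5 had -0.36, or -0.22 without Et1 replicate 2, with Et1 signals of 401 to 552 and control signals of 557 to 684. The prolyl isomerase Ppib (cyclophilin B), which acts on collagen, read 2373 to 2673 in the controls and 2031 to 2222 with Et1, a log2 fold change of -0.23 with a 95% interval from -0.50 to 0.04. Fkbp2, another prolyl isomerase, had -0.36, or -0.18 without Et1 replicate 2, and its groups overlapped.

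Translocation genes, with their median of -0.11, lay between the folding enzymes and all genes. Sec61a1, the channel itself, read 1119, 975 and 1277 in the controls and 1259, 930 and 1124 with Et1. The groups lay on top of each other, with a log2 fold change of -0.03 and a 95% interval from -0.41 to 0.35; it was 0.07 without control replicate 3 and 0.09 without Et1 replicate 2. Its 5 other tested probe sets ran from -0.42 to 0.05. Sec61b, a small channel subunit, read 1932 to 2277 in the controls and 1680 to 1910 with Et1, without overlap, at a log2 fold change of -0.27 (adjusted p by limma = 0.443).

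The Ssr genes encode the 4 subunits of the translocon-associated protein complex, which sits beside the channel, and they did not have equal values. Ssr1 read 1716, 1209 and 1066 in the controls and 969, 866 and 699 with Et1. Control replicate 1 was far above the rest, yet the groups did not overlap, and the log2 fold change was -0.64 with an SE of 0.21 (adjusted p by limma = 0.265; 0.123 with the spike-in block). The mean of its 3 tested probe sets was -0.41. Ssr3 and Ssr4 had -0.18 and -0.04, each with overlapping groups; Ssr3 had -0.11 without Et1 replicate 3, and Ssr4 had 0.03 without control replicate 3. Ssr2 followed the spike-in sets: it read 742, 726 and 783 on the arrays of the high set and 553, 484 and 448 on those of the low set. The high set was higher by 0.64 after the group was fitted (adjusted p by limma = 0.00496), and the log2 fold change for Et1 was 0.12 with no block and -0.09 with it.

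Degradation genes had no common direction, with 3 lower and 3 higher means. Herpud1, a membrane protein that gathers the degradation complex, read 405, 353 and 493 in the controls and 755, 418 and 726 with Et1. Et1 replicates 1 and 3 were high and Et1 replicate 2 lay among the controls. The log2 fold change was 0.57 with an SE of 0.25 (adjusted p by limma = 0.405), and 0.37 with the spike-in block (adjusted p by limma = 0.163). Herpud1 was also higher in the high set, by 0.60 (adjusted p by limma = 0.0118), and the Et1 difference was 0.15 inside the low and 0.59 inside the high set. In its other probe set all Et1 signals (448 to 553) were above the controls (284 to 416), at 0.56.

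Syvn1 (HRD1), the ubiquitin ligase of the pathway, was split by spike-in set in its brightest probe set. It read 411, 372 and 348 on the low set, that is control replicates 1 and 2 and Et1 replicate 2, and 143, 159 and 128 on the high set. The log2 fold change of -0.54 had a 95% interval from -1.61 to 0.53 and became -0.08 with the block. It was -1.03 without control replicate 3 and -0.25 without Et1 replicate 3. High minus low, the sets differed by -1.37 on the log2 scale (adjusted p by limma = 0.000332). The other tested probe set of Syvn1 read 272, 247 and 190 in the controls and 194, 189 and 180 with Et1, at -0.31. In that probe set Et1 replicate 2 lay among the arrays of the high set. Sel1l, which holds Syvn1 in place, had 0.23, which became 0.10 without Et1 replicate 2 and 0.15 without control replicate 3, and its 4 other tested probe sets were above 0. Edem1, which recognises trimmed glycans, had -0.09, and its other probe set -0.47. Derl1 and Derl2, channel-like proteins of the exit route, had -0.02 and 0.08. The 3 other tested probe sets of Derl1 ran from -0.34 to -0.21, and the mean of its tested probe sets was -0.20. In their brightest probe sets the groups of Edem1, Derl1 and Derl2 overlapped, and the signs changed when 1 array was left out.

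Over all 34 members the spike-in sets differed in limma for 7, namely Ssr2, Herpud1, Xbp1 and Manf, higher in the high set, and Calr, Syvn1 and Ern1, lower in it. Of all genes, 7.73% were higher and 9.6% lower. The collagen gene Col1a1, a fibroblast marker, read 5633 to 6728 on the low and 1159 to 1897 on the high set.

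**Figure D4:**
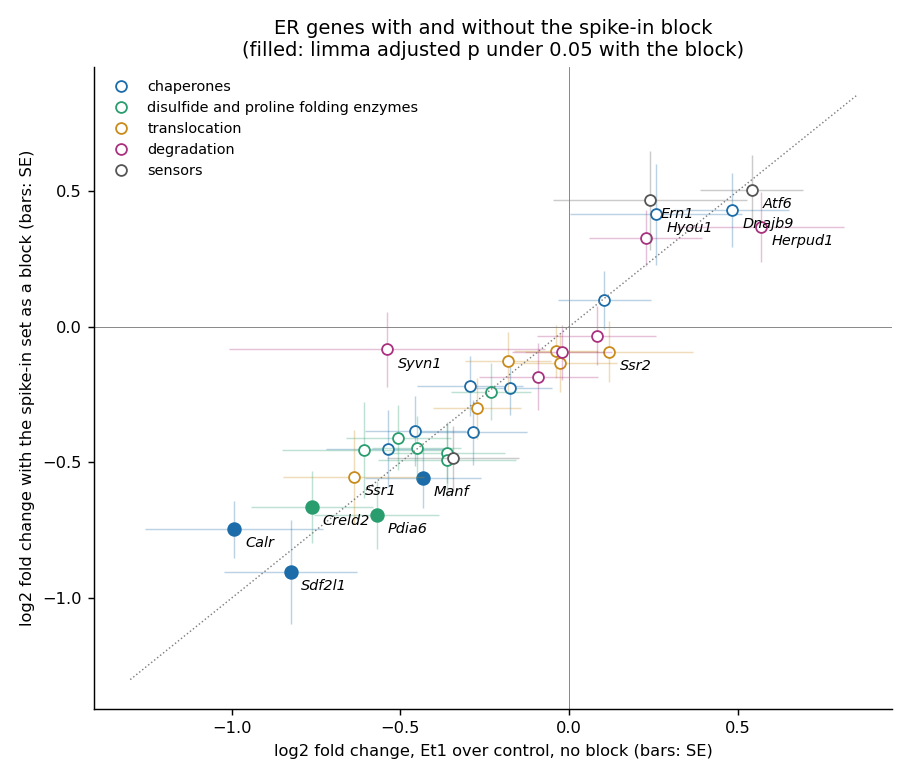
Log2 fold change of each member, Et1 over control, without (horizontal) and with (vertical) the spike-in set as block, with SE bars; filled points passed a limma adjusted p of 0.05 with the block. The 5 filled points are Calr, Sdf2l1, Creld2, Pdia6 and Manf, and Syvn1 lies far from the dotted line of equal values, at -0.54 and -0.08.

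Of the 3 sensors and their factors, 2 had higher means with Et1. Atf6, which is cut in the Golgi to free a transcription factor, read 167, 153 and 183 in the controls and 249, 240 and 242 with Et1. All Et1 arrays were above all controls and lay close together. The log2 fold change was 0.54 with an SE of 0.15, or 1.45-fold (adjusted p by limma = 0.203; 0.0656 with the spike-in block). Both other tested probe sets also had every Et1 signal above every control, at 0.57 and 0.99. Xbp1, whose messenger RNA Ern1 splices, read 1335, 1088 and 1469 in the controls and 1182, 784 and 1127 with Et1, with overlap, at -0.34 (adjusted p by limma = 0.524; 0.0553 with the spike-in block). Without Et1 replicate 2 its value was -0.16. The probe sets of Xbp1 were not assigned to its spliced form. Another of its probe sets, at -0.25, passed with the block (adjusted p by limma = 0.0195), and 1 of its 3 others was at 0.01. Ern1 had 0.24, with overlap, and from -0.03 without control replicate 3 to 0.48 without control replicate 1.

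The 8 members with an ERSE match had log2 fold changes from -0.99 to -0.17 with a median of -0.50. With the spike-in block these ran from -0.75 to -0.08, the last being Syvn1, with a median of -0.39. In 5 of the 8 all Et1 signals were below all controls and in 0 above, where 8.49% and 10.7% of all genes were. Members with a promoter window and no ERSE match had a median of -0.25 over 20 tested genes (-0.27 with the block), and their Et1 signals were all lower in 8 and all higher in 2. Outside the list, 6 tested genes had an exact ERSE, with a range from -0.98 to 0.15 and a median of -0.21, or -0.03 with the block. In 2 of these the Et1 signals were all lower and in 1 all higher. All of the 8 but Syvn1 are chaperones or folding enzymes, while the members without a match also hold genes of other roles, such as Herpud1. The 19 chaperones and folding enzymes, with or without a match, had a median of -0.43 (-0.45 with the block), and Et1 signals were all lower in 12. Motif and role therefore cannot be told apart here. A match is a description of the letters and not of binding, and whether the medians differ was not tested.

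Other genes of the secretory pathway were taken from 6 lists, with 93 tested genes and a median of -0.09. In limma 0 of them passed with no block. With the spike-in block 8 of the 93 were called lower and 2 higher, where 2.72% and 1.75% of all genes were. At an unadjusted p under 0.05 with no block, 15 were lower and 1 higher, where 6.53% and 6.93% of all genes were. The list nearest to the folding enzymes was that of retrieval and export, where 14 of 16 genes had lower means and the median was -0.32, or -0.17 with the spike-in block. In it Kdelr3, a receptor that returns escaped chaperones to the ER, went from 845 ± 131 to 460 ± 126 (SD, n = 3), a log2 fold change of -0.90 (adjusted p by limma = 0.141; 0.0341 with the spike-in block). Sec24d and Sec23a, coat proteins of vesicles that leave the ER, had -0.85 and -0.65, with limma adjusted p of 0.0805 and 0.0910, or 0.00716 and 0.0118 with the block. Their Et1 signals all lay below the controls, at 406 to 531 against 754 to 913 for Sec24d and at 881 to 999 against 1427 to 1601 for Sec23a. Sec24a had -0.65.

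Of 22 other folding genes, Ero1a, the oxidase that supplies isomerases with disulfides, read 633, 764 and 815 in the controls and 1320, 1246 and 1263 with Et1. It stood higher in every Et1 culture, at a log2 fold change of 0.80 with an SE of 0.14 (adjusted p by limma = 0.0707; 0.00737 with the spike-in block). Fkbp14, a prolyl isomerase of collagen, had -0.67, and Cnpy4 and Fkbp11 had -0.34 and -0.37; this list had a median of -0.13. Among 17 genes of targeting and translocation (median 0.00), Tram1 and Tram2, which sit at the channel, had -0.48 and -0.68, and Spcs3 and Srp9, of the signal peptidase and the signal recognition particle, had -0.28 and 0.25. Among 11 genes of N-glycan transfer and trimming (median -0.14), Ostc had -0.46, and Stt3a, Dad1 and Ganab had -0.23, -0.24 and -0.28.

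Of 20 other degradation genes, with a median of 0.02, the selenoproteins Selenok and Selenos had -0.63 and -0.54, with every Et1 signal below every control, and Marchf6 and Ubxn8 had 0.38 and -0.23. Of 7 other sensors and their relatives, with a median of 0.06, Eif2ak3 read 170, 171 and 154 in the controls and 93.5, 85.3 and 123 with Et1. Its log2 fold change was -0.73 with an SE of 0.19 (adjusted p by limma = 0.163; 0.0541 with the spike-in block), and its groups did not overlap. Creb3l2 and Creb3l1, membrane-bound factors related to Atf6 that act on secretory genes, had -0.57 and -0.84. The groups of Creb3l1 overlapped, and with the spike-in block it had -0.52 (adjusted p by limma = 0.153). Between spike-in sets, high minus low, Creb3l1 differed by -0.97 (adjusted p by limma = 0.00579). Mbtps2, a protease that frees Atf6, had 0.30.

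**Figure D5:**
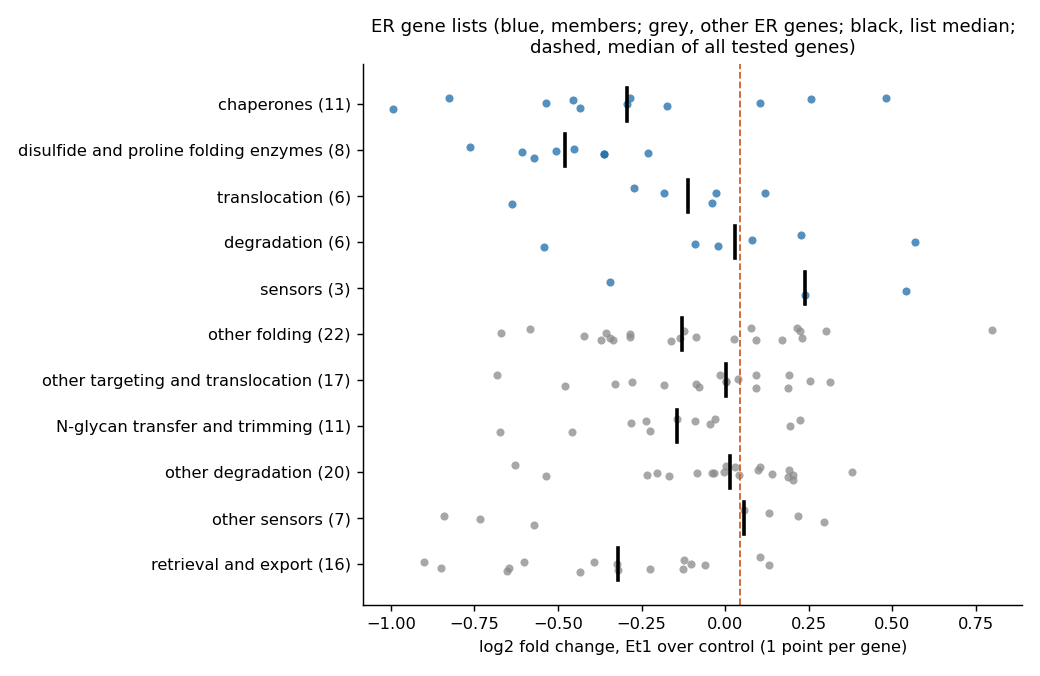
Log2 fold changes, Et1 over control, of the members by role (blue) and of the 6 lists of other ER genes (grey), 1 point per gene, with the median of each list (black) and of all tested genes (dashed, 0.05). The medians of the folding enzymes (-0.48), of retrieval and export (-0.32) and of the chaperones (-0.29) lie farthest to the left.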

How the data were processed

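Affymetrix Mouse430_2 arrays were deposited as 1 linear intensity per probe set and array. MAS5 made these signals, according to the submitters' processing notes, and how it was scaled is not given in the sources used here. Arrays were brought to the same 2% trimmed mean (139). The 4 zeros took the lowest value above 0 on their array. No pseudocount entered the log2 step, so fold changes of dim probe sets are open to background. Of 45101 probe sets, 64 controls were left out, and 22519 with a mean scaled signal at or above the median of 41.0 were tested with limma 3.58.1 in R 4.3.3 (intensity trend, no block, Benjamini-Hochberg over all of them, threshold 0.05). Backgrounds are over the 11666 genes with a tested probe set of 1 symbol, each by its brightest, named from the platform annotation. Signals carry no count, so the number of arrays limits the precision.

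Members, roles, lists and the spike-in split were chosen with earlier results of these data known. Every member is named, and of each other list at most 4 genes, those with the smallest unadjusted p. The spike-in sets were placed at the largest gap in the mean log2 signal of 27 bacterial control probe sets. The design text says that cells were split into treated and untreated cultures, not that replicate numbers mark the split. The numbers were therefore not taken as pairs. The deviations of same-numbered arrays from their group means correlated at -0.12, 0.44 and 0.45 over probe sets, which does not decide whether they are pairs. The fit was also run on simulated data with independent noise on each array, and the outcome is not given here. That simulation held no spike-in sets, so it cannot show how the fit behaves with them. Other settings were another scaling, filter, pseudocount, trend or probe set choice, a block and each array left out.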

Additional observations from a re-analysis of the deposited data

How the results depend on the processing

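None of the alternatives called a member higher. Of the 16 compared, the replicate block called 3 members lower (Calr, Creld2 and Ssr1) and the spike-in block 5, and the others 0. Over all probe sets limma called 78, against 44 with median centring, 40 with no filter, 7 with no intensity trend, 567 with the replicate block, 868 with the spike-in block and 4 to 229 with 1 array left out (4 when control replicate 1 or 2 was dropped, 229 for control replicate 3, and 10, 46 and 6 for Et1 replicates 1 to 3). Why these counts move was not tested. Of the other ER genes 0 were called, against 1 with the filter at the 75th percentile, 6 with the replicate block, 10 with the spike-in block and 0 to 1 with 1 array left out. The medians with 1 array left out were -0.47 to -0.33 for chaperones and folding enzymes, -0.17 to -0.08 for translocation and -0.05 to 0.10 for degradation, the last changing sign. When each gene's probe sets were averaged, the translocation median was -0.18. The degradation median was below 0 with that averaging (-0.081), the spike-in block (-0.059), median centring (-0.023) and no _x_at or _s_at probe sets (-0.0047). Signs changed for Hyou1 (-0.017 with no _x_at or _s_at probe sets, -0.10 as a mean of probe sets), Uggt1 (-0.18 as that mean), and Ssr2 and Derl2 (-0.093 and -0.033 with the spike-in block). With 1 array left out, signs also changed in the ranges of Hyou1 (-0.060 to 0.45), Sec61a1 (-0.13 to 0.091), Ssr2 (-0.034 to 0.37), Ssr4 (-0.083 to 0.027), Edem1 (-0.22 to 0.0032), Derl1 (-0.10 to 0.052), Derl2 (-0.019 to 0.24) and Ern1 (-0.028 to 0.48). By deviations from the group means, Et1 replicates 2 and 3 correlated best with the control of the same number (0.44 and 0.45). Et1 replicate 1 correlated best with control replicate 3 (0.26). Each of these matches lay within 1 spike-in set, so the correlations cannot decide whether the replicate numbers pair the arrays. The members not named here kept their sign in every setting in which they were tested; Sdf2l1 was not tested with the filter at the 75th percentile. The median of all genes ran from -0.01 to 0.07, and 3 arrays per group limit each value.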
